A study of Mus musculus with 2 samples.

Results

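Transglutaminases and peptidyl arginine deiminases are enzymes that alter proteins after translation while skin and hair harden. The 8 enzymes described here were the transglutaminases Tgm1, Tgm2, Tgm3 and Tgm5 and the deiminases Padi1, Padi2, Padi3 and Padi4. They were found by gene name among the gene spots of both arrays, are 8 of the 27975 gene names or identifiers there, and were read by 12 of the 41174 probes. RNA of primary epidermal keratinocytes of wild-type mice was hybridised against RNA of K14-caSmad1 mice, which carry a transgene for constitutively active Smad1, a transcription factor of the BMP pathway. Both groups were of strain FVB/NJ and 20 days old, and the tissue of both was epidermis. The prefix K14 is the usual shorthand for the keratin 14 promoter, active in basal keratinocytes, although the labels do not spell it out. There were 2 two-colour arrays, labelled as biological replicates, each with wild type in Cy3 and K14-caSmad1 in Cy5. How many animals entered an RNA sample was not given, so p-values measure only how well the arrays repeated, with no known error between animals.

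Transglutaminases join glutamine and lysine side chains of neighbouring proteins into bonds that resist breakage, and in skin they assemble the cornified envelope, the protein shell of a dead keratinocyte. Deiminases turn arginine into citrulline, which removes positive charge and loosens proteins before they are cross-linked or broken down. In hair, both enzyme families act in sequence on trichohyalin, the matrix protein of the inner root sheath and medulla, and human variants of PADI3, TGM3 and TCHH are known from uncombable hair syndrome. Tgm3 and Padi3 were taken as hair-type, Tgm1, Tgm5 and Padi1 as epidermis-type, and Tgm2, Padi2 and Padi4 as expressed widely or elsewhere. These classes are not sharp, because Tgm3 and Padi3 are also made in upper epidermis and Padi1 in the hair follicle.

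The probes are 60-base oligonucleotides, and a value reads the RNA only where a probe lies. The first 30 bases of the probes that carried the results are shown in lower case as deposited, because family members resemble each other and a shared probe would mix their signals.
Tgm1 probe at base 2555: tgacagtcgctctggggagaacatacctat
Tgm3 probe at base 2043: tcgctgacttttcctgcaataaattcccta
Tgm5 probe at base 1435: aagtatgaagaaggttcccttcaagagaga
Tgm6 probe at base 2588: tttctgaagccataagacaaagcagaaaca
Padi1 probe at base 3430: atggcctagtaggcattggctcttccccct
Padi3 probe at base 2928: tacagccatcctgcaggttgccatagaggc
Padi4 probe at base 2210: tgtgtcctcaaatggtccttgcatagcaag
Padi4 probe at base 2328: gcaaagcacattggaatcaatttcaaagca
Bases are counted in the transcript record given for each probe. Over all 146 pairs of probes of different genes in both families, the longest run of letters in common was 10 bases, and at most 26 of the 60 bases matched when a pair was aligned. The probes of Tgm3 and Tgm6 shared a run of 5. Probe positions per the scanner files were on mouse build mm9: Padi1 at chr4:140369162-140369221, Padi3 at chr4:140341364-140341423 and Padi4 at chr4:140301793-140301852 and chr4:140301675-140301734, all on the minus strand. The Tgm3 probe lay at chr2:129874069-129874128 and the Tgm6 probe at chr2:129979240-129979299 on the plus strand. The Tgm1 probe lay at chr14:56319032-56319091, and the Tgm5 probe matched across 3281 bases at chr2:120874883-120878163, both on the minus strand. A match over more bases than the probe holds crosses at least 1 intron. Which exon or untranslated region the other probes lie in was not analysed here.

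Across the whole series, 15570 and 16144 of the 43379 gene spots were above background in wild type on replicates 1 and 2, and 14412 and 15800 in K14-caSmad1. All 8 basal and all 7 suprabasal keratinocyte markers were above background in both channels. The tested Smad1 probe had a log2 ratio of 0.27 (limma adjusted p = 0.001082), and whether it reads the transgene is not known. After normalization, 11752 genes were tested with limma and Benjamini-Hochberg adjustment at 0.05, and 87.1% of them were called, 46.3% lower and 40.8% higher in K14-caSmad1. With median centring in place of loess the split was 30.4% lower and 58.6% higher, and the median log2 ratio of all genes moved from -0.03 to 0.22. At least 2-fold lower on both arrays were 9.81% of genes, and at least 2-fold higher 4.08%.

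Of the 8 enzymes, 6 were tested, and limma called 5 lower and 1 higher in K14-caSmad1. Because 87.1% of all genes were called, these calls say only that the arrays repeated. By size, 4 of the 6 were at least 2-fold lower on both arrays, namely Padi1, Padi3, Padi4 and Tgm3, and 0 were at least 2-fold higher, beside 9.81% and 4.08% of all genes. With all spots in the background fit the count was 3, because Tgm3 was then at -0.29 on replicate 1 and -1.95 on replicate 2. Tgm3 passed the filter on dim probes only through wild type, so a lower value in K14-caSmad1 was built into its selection. Tgm5, the enzyme called higher, passed it only through K14-caSmad1, so a higher value there was favoured in the same way. The 3 deiminases were above background in both channels.

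**Figure D1:**
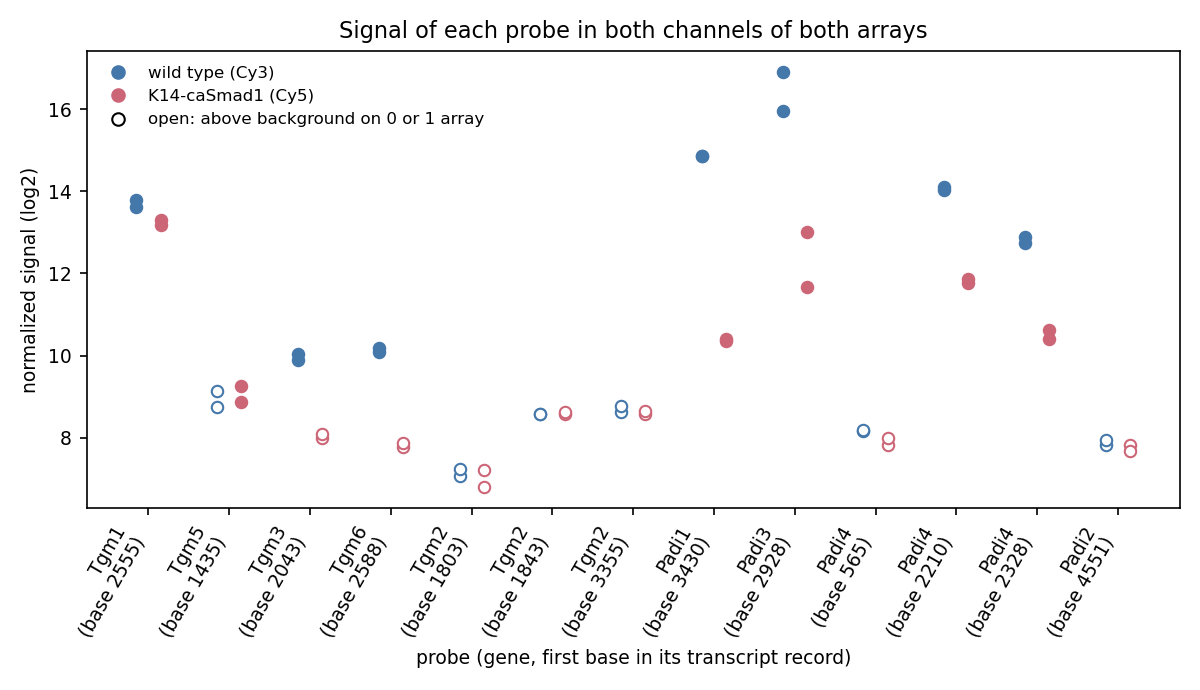
Normalized log2 signal (vertical axis) of each probe of the 8 enzymes and of Tgm6 in wild type (blue) and K14-caSmad1 (red), 1 point per array. Filled points were above background on both arrays of that channel. Padi1, Padi3 and 2 Padi4 probes are separated by colour, Tgm1 nearly overlaps, and Tgm3 and Tgm6 fall to open points in K14-caSmad1.

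Padi1 is a deiminase of differentiating epidermis that acts on keratins and filaggrin. Its normalized log2 signal in wild type was 14.86 on both arrays, and in K14-caSmad1 it was 10.35 and 10.40. The groups were far apart and each repeated closely. The log2 ratio was -4.49 (SE 0.0271, 2 arrays; limma adjusted p = 1.533e-05), so that 4.46% of the wild-type signal was left, a 22.4-fold lower level. In the order of all 11752 tested genes from the most lowered upward, Padi1 ranked 57.

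Padi3, the deiminase known for acting on trichohyalin and S100a3 in the hair follicle, gave log2 signals of 15.96 and 16.92 in wild type and of 11.67 and 13.02 in K14-caSmad1. The groups did not overlap, but the spot was brighter on replicate 2 in both channels. Its log2 ratios were -4.29 and -3.90, with a mean of -4.09 (SE 0.105; limma adjusted p = 5.824e-05), a 17.1-fold lower level and 5.87% of wild type. It ranked 78 of all genes. The mean level of the spot differed between arrays by 1.15 on the log2 scale, and only 160 of the 11752 genes differed more. This comparison of the arrays was chosen after the values of Padi3 were seen. Under the processing reported, neither of the values alone changes the order of size in which Padi3 follows Padi1 and precedes Padi4.

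Padi4 is the deiminase with a nuclear localization signal, best known for citrullinating histones in granulocytes. Its brightest probe read 14.11 and 14.03 in wild type and 11.86 and 11.77 in K14-caSmad1. The log2 ratio was -2.26 (SE 0.0243; limma adjusted p = 2.031e-05), a 4.78-fold lower level or 20.9% of wild type. A second probe in the same transcript gave log2 signals of 12.90 and 12.73 against 10.62 and 10.41, and a ratio of -2.30. Both probes thus showed a difference of nearly one size. The third probe, at base 565 and chr4:140315903-140315962, was not above background in any channel, although it names the same transcript record. Which transcripts the probes at bases 2210 and 2328 read was not tested.

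Padi4 is abundant in neutrophils, so markers of that cell type are given beside it. Of the 13 neutrophil names 11 had a probe and 4 genes were tested. All 4 passed the filter only through wild type, where both arrays were above background, so their lower values in K14-caSmad1 were built into the selection and support nothing. Their mean log2 signal was 10.32 and 10.25 in wild type and 8.61 and 8.58 in K14-caSmad1, and without the filter the median log2 ratio of the 11 genes was -0.22. S100a9 was at -3.55 and S100a8 at least 4.78-fold lower, both genes that keratinocytes can also express. Mpo was at -0.39 and Cxcr2 at -0.23. Camp, Csf3r, Elane, Ltf, Mmp8, Ngp and Retnlg, which include defining granule genes, were not above background in any channel. The part of neutrophils in the Padi4 value was not tested. In such mixed RNA, fewer cells of a type and less RNA per cell cannot be told apart, for this and every other gene here.

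Padi2, the most widely expressed deiminase, was not above background in any channel. Its single probe, at base 4551 and chr4:140508295-140508354, read raw mean signals of 300.54 and 315.39 in wild type, where negative control spots averaged 339.8 and 343.4. In K14-caSmad1 it read 901.12 and 874.16, against negative controls of 1070 and 1074. No ratio is drawn from it. Padi6, the oocyte deiminase, was likewise not above background on either array.

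**Figure D2:**
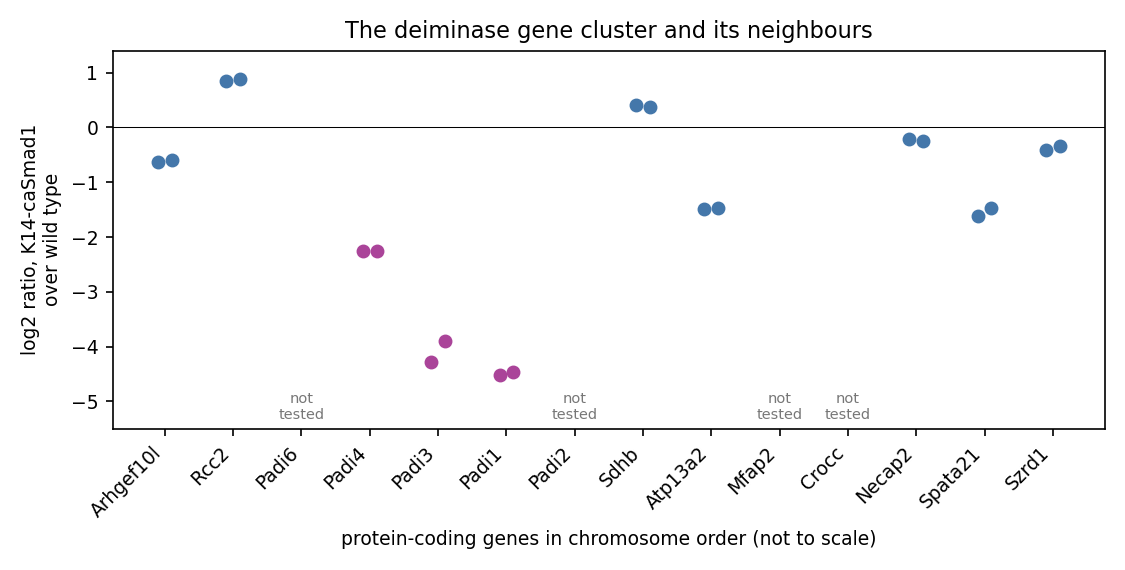
Log2 ratio on each of the 2 arrays (vertical axis) for protein-coding genes around the deiminase cluster, in chromosome order and not to scale. Padi4, Padi3 and Padi1 (purple) lie below -2, while Rcc2 and Sdhb on either side of the cluster lie above 0.

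The deiminase genes lie side by side on chromosome 4, and the order of genes in the RefSeq table for GRCm38.p6 was used to set them among their neighbours. That order was Rcc2, Padi6, Padi4, Padi3, Padi1, Padi2, Sdhb and Atp13a2, counting protein-coding genes. Rcc2, which acts in chromosome condensation, had a log2 ratio of 0.87. Sdhb, a subunit of succinate dehydrogenase, was at 0.40, the nearest tested gene on the other side. The 3 lowered deiminases were thus adjacent to each other and had nearest tested neighbours outside the family that differed in the opposite direction. Farther out, Atp13a2 (-1.48) and Spata21 (-1.54) were also lower, so lower values in the region were not limited to the deiminases.

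Among the transglutaminases, Tgm3 is the enzyme known for cross-linking trichohyalin and keratins in hair and small proline-rich proteins in epidermis. It gave log2 signals of 9.89 and 10.04 in wild type and of 8.0 and 8.10 in K14-caSmad1. In K14-caSmad1 the probe was not above background on either array: its raw signals were 985.35 and 1050, below the negative control means of 1070 and 1074. Its level was therefore at least 2.42-fold lower under the processing reported, a bound that compares the wild-type signal with the dimmest signal still above background and is open to dye bias. The same bound was 2.17-fold with all spots in the background fit, 2.1-fold with median centring and 1.85-fold without background subtraction. The fitted log2 ratio was -1.92 (SE 0.0276; limma adjusted p = 2.633e-05), but that size depended on how background was treated and ran from -4.66 with the scanner's processed signals to -1.12 with all spots in the background fit. The direction was the same under each of the 10 alternatives that tested Tgm3. These reuse the same arrays, and the filter passed Tgm3 only through wild type, so the constant direction is no support.

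Tgm6, a transglutaminase best known from the nervous system, is no member of the hair or epidermis classes but is the next tested gene after Tgm3 on chromosome 2. Its log2 signals were 10.09 and 10.19 in wild type and 7.77 and 7.87 in K14-caSmad1, where it was not above background. It was at least 2.73-fold lower under the processing reported (fitted log2 ratio -2.32, SE 0.0242; limma adjusted p = 1.948e-05). The bound was 2.04-fold without background subtraction, and the fitted ratio ran from -4.84 with the scanner's processed signals to -1.34 with all spots in the background fit. In the last of these replicate 1 was at -0.37, and Tgm6 was no longer 2-fold lower on both arrays. The genes next to the pair differed the other way, with Stk35 at 0.46 before Tgm3 and Snrpb, a splicing protein, at 1.11 after Tgm6.

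Tgm1 is the membrane-anchored enzyme that starts the cornified envelope, and its loss causes lamellar ichthyosis in humans. Its log2 signals were 13.79 and 13.62 in wild type and 13.30 and 13.18 in K14-caSmad1. The groups did not overlap, yet the gap was small: the log2 ratio was -0.47 (SE 0.0277; limma adjusted p = 0.0003322), or 72.2% of wild type. That placed Tgm1 at percentile 24.8 of all genes, at the edge of their middle range from -0.47 to 0.35. With all spots in the background fit it was -0.36 and no longer called (limma adjusted p = 0.2377), and with median centring it was -0.20, which is -0.42 relative to the median of all genes. Its nearest tested neighbours were Gmpr2 at 0.25 and Rabggta at -0.57.

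Tgm5, a transglutaminase of the upper epidermis whose loss causes acral peeling skin, lay near background. Its log2 signals were 8.75 and 9.14 in wild type, above background on 1 of the 2 arrays, and 8.87 and 9.27 in K14-caSmad1, above background on both. The ranges overlapped, although on each array K14-caSmad1 was slightly higher. Tgm5 passed the filter on dim probes only through K14-caSmad1, so a higher value there was favoured by its selection and supports nothing. The log2 ratio was 0.12 (SE 0.0244; limma adjusted p = 0.01165), a call shared in that direction by 40.8% of all genes, and it was lost with all spots in the background fit (0.07, limma adjusted p = 0.8698). The neighbours Ccndbp1 and Lcmt2 were at 0.19 and 0.17.

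Tgm2, the ubiquitous tissue transglutaminase, was not tested, since none of its 3 probes was above background on both arrays of a channel. The probe at base 3355 was above background on 1 wild-type array, with raw signals of 390.62 and 421.37. Those at bases 1803 and 1843 were not above background anywhere. The probes lay at chr2:157942275-157942334, chr2:157945863-157945922 and chr2:157944682-157945882. The other transglutaminase relatives on the arrays, Tgm4 of the prostate, the clotting factor subunit F13a1 and the red cell membrane protein Epb42, were not above background in any channel. Tgm7 was not analysed here.

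**Figure D3:**
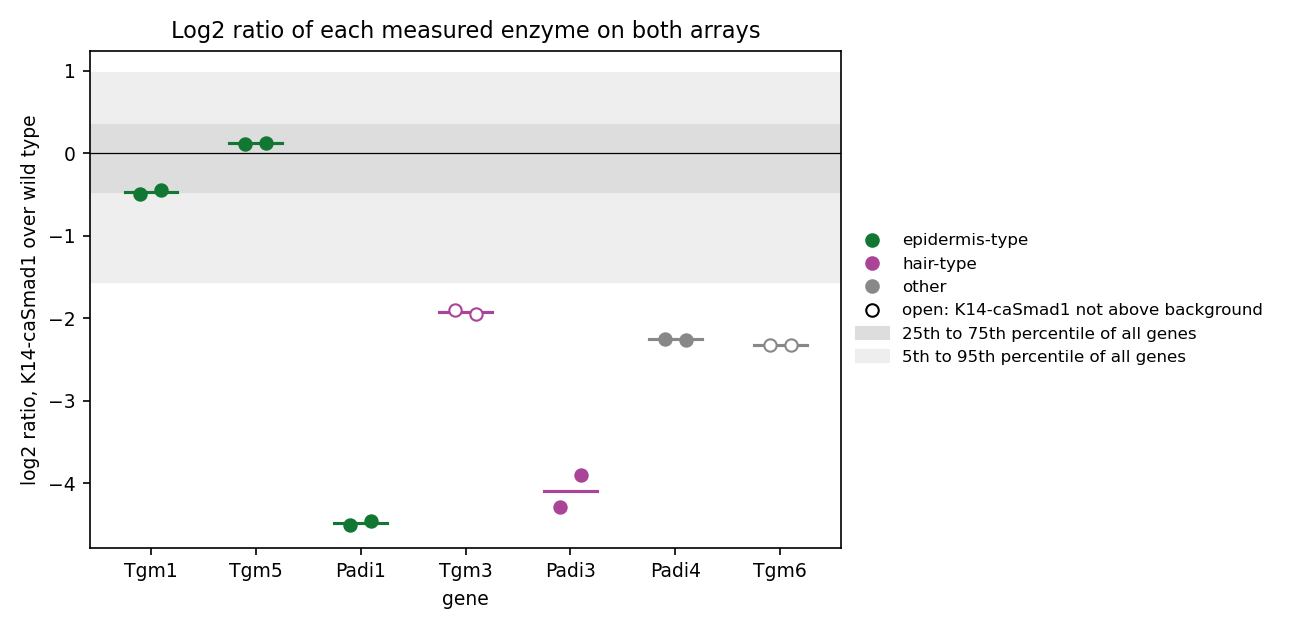
Log2 ratio of K14-caSmad1 over wild type (vertical axis) for each tested enzyme and Tgm6, with 1 point per array and a line at their mean. Grey bands show the 25th to 75th percentile and the 5th to 95th percentile (-1.57 to 0.97) of all 11752 genes. Tgm1 and Tgm5 lie in or at the edge of the darker band, while all 3 deiminases lie below the wider band. The fitted points of Tgm3 and Tgm6 also lie below it, but neither was above background in K14-caSmad1. At its bound, a log2 ratio of -1.27, Tgm3 would lie inside the wider band.

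Under the processing reported, the comparison of hair-type with epidermis-type enzymes turned out differently in each family. Because Tgm3 was not above background in K14-caSmad1, differences that include it are bounds. They were computed with Tgm3 at its 2.42-fold bound, a log2 ratio of -1.27, and hold only under the processing reported. Without background subtraction the Tgm3 bound was 1.85-fold, and with all spots in the background fit the fitted Tgm3 minus Tgm1 was -0.76. Among transglutaminases, the difference was -0.81 or lower for Tgm3 minus Tgm1, and -1.10 or lower for Tgm3 minus the mean of Tgm1 and Tgm5. The latter treats Tgm5 as measured, although it was above background on only 1 wild-type array. The fitted values, which treat the dim signal of Tgm3 as measured, were -1.40 and -1.50 on replicates 1 and 2 against Tgm1. Over both families, hair-type minus epidermis-type was -1.07 or lower at the bound and -1.40 as fitted. Among deiminases the sign was turned, with Padi3 minus Padi1 at 0.22 and 0.57 (mean 0.39, SD 0.244). Under the processing reported, the epidermis-type deiminase thus differed at least as much as the hair-type deiminase on both arrays. With all spots in the background fit this order was reversed on replicate 1, where Padi3 was at -4.09 and Padi1 at -3.99. On replicate 2 they were then at -3.90 and -4.46. The pooled difference therefore mixes families, since a deiminase is 1 of the 2 hair-type but 1 of the 3 epidermis-type enzymes. An exact test over 2 arrays cannot go below p = 0.5, so no test of these differences was made, and the classes hold only 2 and 3 enzymes. The fitted transglutaminase difference moved with the processing. Tgm3 minus Tgm1 ran from -4.18 with the scanner's processed signals to -0.76 with all spots in the background fit. As a mean over the arrays it was negative under every alternative that tested Tgm3. With all spots in the background fit, however, Tgm3 and Tgm1 were nearly equal on replicate 1, at -0.29 and -0.28. On replicate 2 they were then at -1.95 and -0.44. The negative sign of the mean is no support, because Tgm3 passed the filter on dim probes only through wild type and the alternatives reuse the same arrays.

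**Figure D4:**
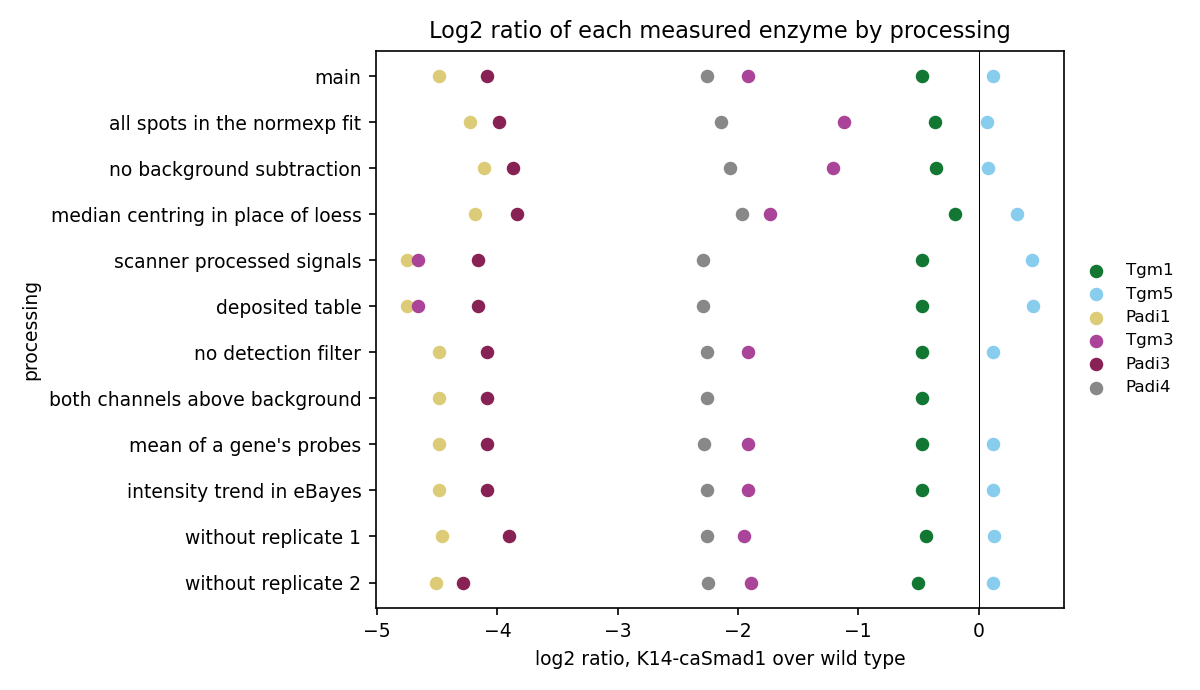
Log2 ratio (horizontal axis) of the 6 tested enzymes under the processing reported (main) and each alternative (rows). Padi1, Padi3 and Padi4 stay close to their columns, while Tgm3 ranges from -4.66 to -1.12. Tgm3 and Tgm5 have no point where both channels had to be above background.

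Proteins that these enzymes modify were examined as the other genes of the pathway. Of 13 substrates of the hair follicle, 11 were on the arrays and tested, 10 of them above background in both channels. The other, Tchhl1, passed the filter only through wild type, so its lower value, at least 6.43-fold, was built into its selection. By size, 10 of the 11 were at least 2-fold lower on both arrays, Tchhl1 among them, beside 9.81% of all genes. Limma called 10 lower and 1 higher, beside 46.3% and 40.8% of all genes. The median log2 ratio was -3.66 against -0.03 over all genes. The inner root sheath keratins Krt28 (-4.97), Krt27 (-3.88) and Krt25 (-3.66) and the hair shaft keratins Krt86 (-5.20), Krt85 (-3.48) and Krt31 (-3.44) were lower. So were trichohyalin, Tchh (-4.69), and S100a3 (-4.07), the hair cuticle protein that Padi3 is known to citrullinate. Tchh, as the best known shared substrate, gave log2 signals of 17.27 and 16.91 in wild type and of 12.61 and 12.20 in K14-caSmad1. The exception was repetin, Rptn, at 0.84, a protein also made in epidermis and chosen for mention after its value was seen.

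Substrates of the epidermis did not share a direction. Of 18 genes 16 were tested. Limma called 7 lower and 7 higher, beside 46.3% and 40.8% of all genes, so these calls set the list little apart. By size, 2 were at least 2-fold lower and 5 at least 2-fold higher on both arrays, beside 9.81% and 4.08% of all genes. Their median log2 ratio was 0.00, and it lay between -0.02 and 0.25 over the alternatives. Higher were keratin 2, Krt2 (4.26), hornerin, Hrnr (3.03), the keratinocyte proline-rich protein Kprp (2.00), keratin 1, Krt1 (1.80), and filaggrin 2, Flg2 (1.75). Lower were the small proline-rich protein Sprr1b (-2.31) and cornifelin, Cnfn (-1.92). The further tested genes lay between -0.95 and 0.97. The highest of these, Sprr2d, passed the filter on dim probes only through K14-caSmad1, so its higher value was built into its selection. Second probes gave 3.34 for Krt2 and 3.32 for Hrnr. Probes disagreed for Krt10, at 0.02 and 2.29, and for Evpl, at -0.34 and -1.76.

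**Figure D5:**
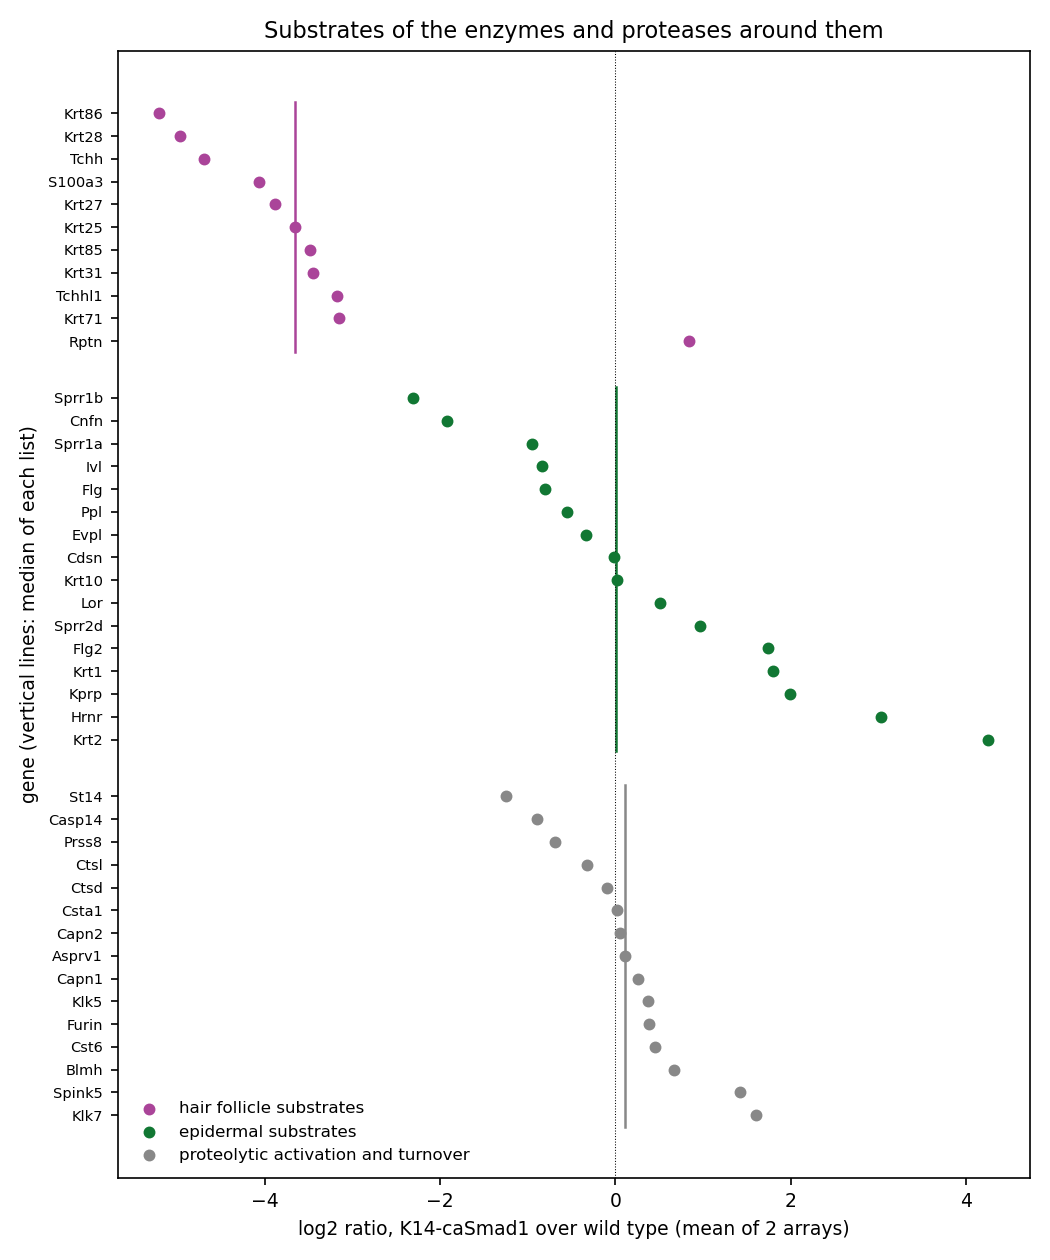
Mean log2 ratio of 2 arrays (horizontal axis) for each tested gene (rows) of the lists of hair follicle substrates, epidermal substrates and proteolytic activation and turnover, with a vertical line at each list's median. Hair follicle substrates lie below -3 apart from Rptn, while epidermal substrates spread from -2.31 to 4.26. The point of Tchhl1 is a fitted value, since its probe was not above background in K14-caSmad1. The same holds for Sprr2d, whose probe was not above background in wild type.

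Some proteases activate transglutaminases or break down citrullinated proteins. All 15 genes of the list of proteolytic activation and turnover, which holds proteases and protease inhibitors, were tested. Limma called 5 lower and 7 higher, beside 46.3% and 40.8% of all genes, and the median was 0.11. Of those called higher, Capn1 passed the filter on dim probes only through K14-caSmad1, so a higher value there was favoured by its selection. By size, 1 of the 15 genes was at least 2-fold lower and 2 at least 2-fold higher on both arrays, beside 9.81% and 4.08% of all genes. The kallikrein Klk7 (1.60, with other probes at 0.84 and 0.51) and the kallikrein inhibitor Spink5 (1.43) were higher, and matriptase, St14 (-1.25), was lower. St14 was no longer 2-fold lower on both arrays with all spots in the background fit or with median centring, Spink5 no longer 2-fold higher with all spots, and Klk7 no longer with the mean of its probes. Cathepsin L, Ctsl, known for cleaving the Tgm3 zymogen, was at -0.32, and cathepsin D, Ctsd, an activator of Tgm1, at -0.09. Bleomycin hydrolase, Blmh, which degrades citrullinated filaggrin, was at 0.67, and caspase 14, Casp14, which cleaves filaggrin, at -0.89. These 4 were chosen for their known role, with values known.

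Markers of other cells that a keratinocyte preparation can hold are given by level, and their part in the enzyme values was not tested. Tested were 5 of 8 fibroblast, 3 of 8 endothelial and 5 of 7 melanocyte markers, and all of these were above background in wild type, but only 1, 0 and 2 in K14-caSmad1. Most therefore entered through the group where they were high, and their counts by direction support nothing. The mean log2 signal of the tested fibroblast markers was 9.82 and 9.78 in wild type and 8.66 and 8.68 in K14-caSmad1. For endothelial markers it was 9.40 and 9.31 against 8.66 and 8.54, and for melanocyte markers 9.93 and 10.03 against 8.93 and 8.83. Without the filter on dim probes the median log2 ratios were -0.38 for all 8 fibroblast, -0.25 for all 8 endothelial and -1.04 for all 7 melanocyte markers. Of 8 muscle markers only Mylpf was tested, at -0.61. Macrophage and Langerhans cell markers had a median of 0.11 over 7 of 10 genes, and -0.01 over all 10 without the filter. Keratinocyte markers had medians above 0, at 0.90 for 8 basal genes and 0.52 for 7 suprabasal genes.

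The gene closest to Padi1 in its log2 ratios on both arrays was the hair keratin-associated protein gene Krtap19-5 (-4.47), by Euclidean distance over the 2 values (0.0523). Chac1, a glutathione-degrading enzyme, followed at 0.0644, and Prr9, a proline-rich protein gene, at 0.0663, both at -4.46. Next to Tgm5, the member with the highest ratio, were Chmp2b, Rpl13 and Fam102a, all at 0.12. With 2 arrays of 1 comparison this likeness says only that the ratios were of one size.

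The promoters of the 4 enzymes that were at least 2-fold lower on both arrays are shown to set their letters side by side, as the 250 bases before the start in RefSeq on build GRCm38.p6, with motif matches on either strand in capitals.
Padi1 promoter, chr4:140845779-140846028, minus strand: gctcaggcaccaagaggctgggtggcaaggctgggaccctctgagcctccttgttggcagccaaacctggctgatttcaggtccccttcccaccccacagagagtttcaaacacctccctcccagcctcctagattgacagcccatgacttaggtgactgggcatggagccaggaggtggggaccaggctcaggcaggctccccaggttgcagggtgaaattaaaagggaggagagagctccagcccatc
Padi3 promoter, chr4:140810649-140810898, minus strand: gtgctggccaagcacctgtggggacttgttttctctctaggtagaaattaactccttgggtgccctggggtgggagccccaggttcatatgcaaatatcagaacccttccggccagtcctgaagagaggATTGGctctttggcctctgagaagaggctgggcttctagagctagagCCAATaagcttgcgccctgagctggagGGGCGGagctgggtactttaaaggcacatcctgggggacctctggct
Padi4 promoter, chr4:140774204-140774453, minus strand: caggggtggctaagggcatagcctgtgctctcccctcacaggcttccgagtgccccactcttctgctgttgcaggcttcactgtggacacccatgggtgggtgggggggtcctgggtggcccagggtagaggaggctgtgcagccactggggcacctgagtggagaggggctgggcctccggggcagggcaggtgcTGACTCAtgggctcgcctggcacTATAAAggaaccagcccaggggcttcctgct
Tgm3 promoter, chr2:130012090-130012339, plus strand: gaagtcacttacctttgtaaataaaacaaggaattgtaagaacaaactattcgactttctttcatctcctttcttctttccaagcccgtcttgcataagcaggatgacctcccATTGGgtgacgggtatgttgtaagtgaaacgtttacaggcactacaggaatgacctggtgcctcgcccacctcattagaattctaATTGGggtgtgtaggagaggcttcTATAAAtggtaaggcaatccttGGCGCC
The motifs searched on both strands were the CCAAT box (CCAAT), the GC box (GGGCGG), the AP-1 motif (TGANTCA, where N is any base), the palindromic Smad element (GTCTAGAC), a GC-rich Smad motif (GGCGCC) and the TATA box (TATAAA). No match overlapped another, and 7 of the 8 members had an entry in the table. Members were counted by gene, with a match in any promoter of the gene, while the shares beside them are over promoters. Tgm1 had an additional promoter entry, and its CCAAT and GC box matches lay in different entries. CCAAT stood in the promoters of Padi2, Padi3, Tgm1, Tgm3 and Tgm5, that is 5 of 7 members, and in 33.8% of all 32851 promoters. The GC box GGGCGG was in Padi2, Padi3 and Tgm1 and in 32.7% of all. TGANTCA was in Padi4 and in 6.75% of all. TATAAA was found in Padi4, 31 to 26 bases before the start, and in Tgm3, 28 to 23 bases before it, and in 12.4% of all. GGCGCC, known for binding Smad1 and Smad5, was in Tgm3 and in 9.59% of all, and the palindrome GTCTAGAC was in 0 members and in 0.167% of all. The lowered members shared no motif of this search: the Padi1 promoter held none of these letters, Padi3 and Tgm3 shared CCAAT, and Padi4 and Tgm3 shared TATAAA. A match describes letters only, and no binding was measured here.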

How the data were processed

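Scanner files of 2 arrays written by Agilent Feature Extraction 10.5.1.1, per the file headers, hold the deposited mean and background intensity of each spot in both channels. The deposited series table holds the authors' log10 ratio of Cy5 over Cy3 processed signals. From the intensities, log2 ratios were computed with limma 3.58.1 in R 4.3.3. The 36 spots of replicate 1 on non-uniform background were left out, as were spots with outlier flags. Background was corrected by normexp (offset 50) and arrays were normalized by loess (span 0.3). Levels are normalized log2 signals after Aquantile scaling. A probe was tested if above background on both arrays in either channel, which left 15110 probes, and the brightest tested probe stood for its gene. Both arrays' mean ratio was tested against 0 by lmFit and eBayes. The self-test on simulated data ran the same fit.

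Gene names were updated through the RefSeq table for GRCm38.p6: an accession named 24844 probes, a symbol 6045 and an older synonym 1810, while 8475 stayed as in the file. The aligner of the probe positions is not given in the sources used here. The number of arrays limits the precision. No dye swap was available, so dye and genotype cannot be told apart. Members, gene lists and alternatives were chosen with earlier results of these data known. Genes were named by rule: all members and relatives, up to 8 genes of each pathway list at least 2-fold changed on both arrays by size, nearest tested neighbours, and the 3 genes closest to the extreme members. The alternatives were all spots in the background fit, no background subtraction, median centring, processed signals, the deposited table, other detection filters, averaged probes, an intensity trend and leaving out each array.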

Additional observations from a re-analysis of the deposited data

How the results depend on the processing

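The ratios of Padi1 (-4.75 to -4.11), Padi3 (-4.29 to -3.84) and Padi4 (-2.29 to -1.97) kept direction under 11 alternatives and stayed called in each with a test. Tgm1 and Tgm5 kept direction but lost the limma call with all spots in the background fit (-0.36, adjusted p = 0.2377, and 0.07, adjusted p = 0.8698), which left 0 enzymes higher, and 0 were higher when both channels had to be above background, where Tgm5 was not tested. In that fit 14.3% of all genes were lower and 13.5% higher, against 46.3% and 40.8%. The share at least 2-fold lower was then 4.02%, and 16% with processed signals, against 9.81%. The differences hair-type minus epidermis-type, Tgm3 minus Tgm1 and Tgm3 minus the mean of Tgm1 and Tgm5 were -1.05, -0.76 and -0.97 with all spots, -1.08, -0.86 and -1.08 without background subtraction, -2.82, -4.18 and -4.64 with processed signals, and -2.81, -4.18 and -4.64 with the deposited table. Tgm3 minus Tgm1 was -1.53 with median centring. The cause of these moves was not tested. Leaving out an array gave -4.29 to -3.90 for Padi3 and -0.50 to -0.44 for Tgm1, and with 2 arrays such values cannot show stability. The test against 0 was itself paired, because each ratio sets both groups against each other within 1 array. No further pairing was possible, since 1 ratio per array leaves no further replicate block. Tgm3, Tgm5, Tgm2 and Padi2 are limited by signal over background.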
